A study of Homo sapiens with 12 samples.

Results

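The mitochondrial ribosomal protein genes were examined in oral squamous cell carcinoma (OSCC) cells with and without rapamycin. The members were the protein-coding genes whose symbol starts with MRPL or MRPS followed by a digit, with a mean of at least 1 CPM (the read count scaled to the total of its library) over the RNA-seq libraries. Of 58302 gene identifiers in the count table, 78 were protein-coding genes of the family and 76 of these were kept, 49 named MRPL and 27 named MRPS. *MRPS28* (mean of 0.948 CPM) and *MRPS24* (0.546 CPM) fell just outside the limit, and *MRPL46* (1.27 CPM), *MRPL12* (2.05 CPM) and *MRPL38* (2.16 CPM) were just inside it. No fold change or peak was used to choose the members.

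RNA-seq was performed on 4 libraries, 2 from cells given 100 nM rapamycin, an inhibitor of the kinase mTOR that induces autophagy, and 2 from control cells. The duration of treatment is not labelled for these libraries. MeRIP-seq enriches RNA fragments that carry N6-methyladenosine (m6A) with an antibody and compares them with the input. It was carried out on the established OSCC lines HSC3 and CAL33, each with and without 100 nM rapamycin for 3 days, and comprised 8 libraries, 1 immunoprecipitate and 1 input for each line and treatment. In MeRIP-seq, number 1 in a title marks HSC3 and number 2 marks CAL33. For RNA-seq, the labelled cell lines go against that numbering, since both rapamycin libraries are labelled HSC3 and both controls CAL33.

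The mitoribosome translates the few proteins that the mitochondrial genome encodes, all of them subunits of the respiratory chain and the ATP synthase. Its RNA is made in the mitochondrion, whereas its proteins are encoded in the nucleus, made in the cytosol and imported. The large subunit forms the peptide bond and the small subunit reads the mRNA. Part of the proteins have a bacterial homologue and the others are specific to mitochondria. mTOR signalling is known to control the synthesis of ribosomes and of many nuclear-encoded mitochondrial proteins. *MRPS30* and *MRPS18A* carry small-subunit symbols but belong to the large subunit, and *MRPS36*, listed in RefSeq as *KGD4*, is known as a subunit of the alpha-ketoglutarate dehydrogenase complex. With these assignments the members comprised 51 large-subunit genes, 24 small-subunit genes and *MRPS36*.

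The numbers of the RNA-seq libraries were followed in the comparison, and the cell line labels were not. Across 15826 genes, log2 CPM correlated at r = 0.96 between the number 1 libraries and at r = 0.95 between the number 2 libraries, against 0.74 to 0.79 for the other pairs (genes are not independent replicates). Among 357 genes with an m6A peak in both HSC3 lists and in no CAL33 list, the median of log2 CPM in number 1 minus number 2 was 0.49 with rapamycin and 0.41 in the controls. Among 189 genes with a peak in both CAL33 lists alone it was -0.43 and -0.44. If the labels were right, rapamycin and cell line could not be told apart in the RNA-seq libraries. The epithelial marker *CDH1* stood at 313 and 215 CPM with rapamycin and at 334 and 179 CPM in the controls (numbers 1 and 2). The markers *KRT5*, *KRT17* and *TP63* were far lower in number 1 than in number 2. *KRT5* stood at 6.27 and 317 CPM with rapamycin and at 34.2 and 1696 CPM in the controls, and was also lower with rapamycin in both pairs. *KRT17* stood at 5.19 and 2059 CPM with rapamycin and at 4.9 and 1341 CPM in the controls, and *TP63* at 13.9 and 343 CPM against 19.7 and 331 CPM. *EPCAM* stood at 224 and 153 CPM against 272 and 164 CPM, and *KRT14* was at 0 in number 1 and at 1.23 and 9.3 CPM in number 2. Of the fibroblast markers, *COL1A2*, *COL3A1* and *DCN* were at 0 in the 4 libraries. *COL1A1* stood at 30.2 and 27.6 CPM with rapamycin and at 22 and 8.75 CPM in the controls. *PDGFRB* was seen in number 1 alone, at 15.2 CPM with rapamycin and 10.3 CPM in the control, and *LUM* was at 2.65 and 3.46 CPM there. The leukocyte marker *PTPRC* was at 0. Of the endothelial markers, *CDH5* stood at 40.4 CPM with rapamycin and 25.5 CPM in the control of number 2. In number 1 it was at 0.703 and 0.877 CPM. *KDR* was at 0 in the 4 libraries, *PECAM1* was at most 1.81 CPM and *VWF* at most 4.33 CPM. The part of these markers in the results was not tested.

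Rapamycin libraries 1 and 2 held 18492273 and 18763045 counts, and control libraries 1 and 2 held 21653290 and 23763098. The members took 0.301% and 0.289% of these counts with rapamycin, and 0.391% and 0.404% in the controls. After scaling of the libraries by edgeR's TMM method, the CPM of the 76 members summed to 2930 and 2977 with rapamycin and to 3909 and 4054 in the controls. Both rapamycin libraries were therefore below both controls in this sum, with a ratio of 0.75 in the number 1 pair and of 0.734 in the number 2 pair. The large-subunit genes summed to 1844 and 1873 CPM with rapamycin against 2458 and 2595 CPM in the controls. The small-subunit genes summed to 1079 and 1097 CPM against 1444 and 1452 CPM. In bulk RNA, fewer cells that express these genes and less of their RNA per cell cannot be told apart, and a share of all counts also moves with the other genes.

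**Figure D1:**
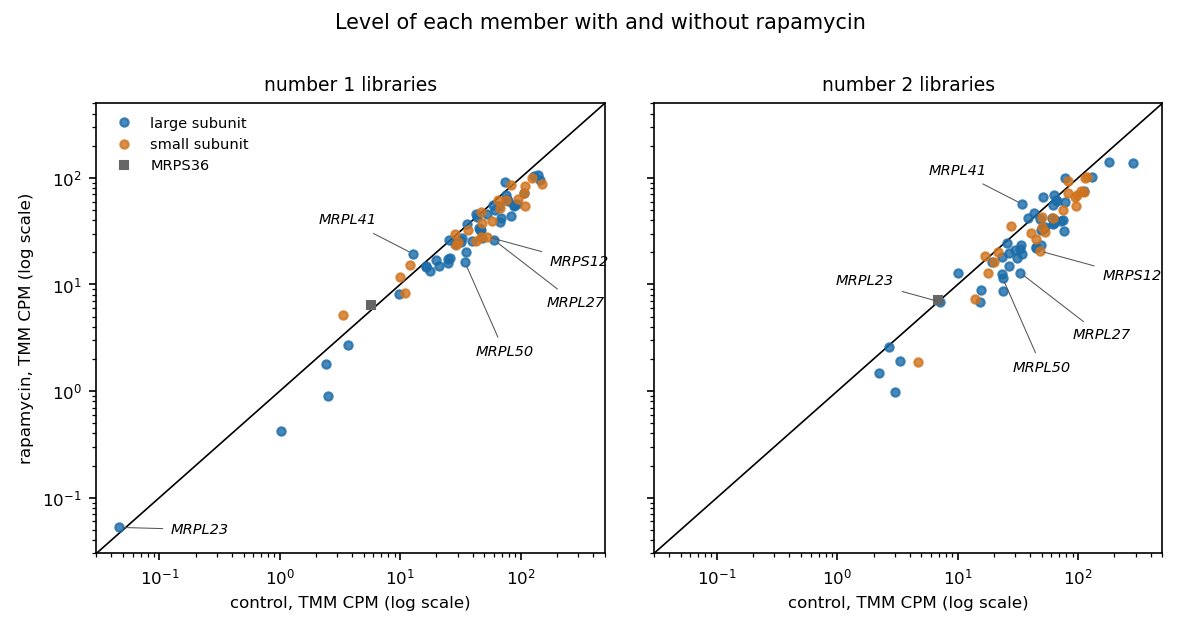
Each point is 1 gene, with its TMM-scaled CPM in the control (horizontal axis, log scale) and in the rapamycin library (vertical axis, log scale) of the same number; the diagonal marks equal levels. In the number 1 pair 63 of the 76 genes and in the number 2 pair 65 lie at a negative log2 difference, and *MRPL23* is near 0 in both number 1 libraries.

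Gene by gene, lower values were spread over most members, and few of the differences were large. The quasi-likelihood test of edgeR was fitted to all genes with the library number as a block, and a gene was called at a Benjamini-Hochberg adjusted p below 0.05 over the 15826 genes tested. The median log2 fold change of the 76 members was -0.51 (quartiles -0.67 and -0.28), beside 0.05 over all genes tested and 0.01 over the 12987 protein-coding genes. The median was -0.38 in the number 1 pair and -0.52 in the number 2 pair. Of the 76 members, 66 (86.8%) had a negative fold change, against 47% of all genes tested. Of the members, 59 (77.6%) were lower in both pairs, whereas 32.8% of all genes tested were lower in both. Both rapamycin libraries were below both controls for 44 members (57.9%), against 16.5% of all genes tested. Both were above both controls for *MRPL28* alone, against 15% of all genes. *MRPL46* reached the limit on mean CPM through the controls alone. With at least 10 counts in every library, which leaves out *MRPL23* and *MRPL46*, 63 of 74 members were negative at a median of -0.49. The log2 differences of the numbered pairs correlated at r = 0.33 over the 76 members, which share their libraries, and at r = 0.47 over all genes tested.

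Few members passed the test on their own. It called 3 members lower, where 3.5% of all genes were called lower, and 0 members higher, where 4.65% of all genes were called higher. At an unadjusted p below 0.05, 21 members (27.6%) were lower, against 10.5% of all genes. At that p 1 member (*MRPL41*) was higher, against 2077 of the 15826 genes tested. Without the block, edgeR called 0 members and 0% of all genes, and 1 member, *MRPS12*, had an unadjusted p below 0.05. Applied to simulated counts, the fit without the block called 0 of the genes that had been given a change. It therefore cannot decide whether a call made with the block holds. The median of the members was -0.50 without the block, which in this balanced design leaves the fold changes nearly as they are. With the block, the p-values rest on how far the differences of the 2 numbered pairs disagree, and they borrow from the spread of the other genes. The labels do not assign the libraries to separate cultures. If the numbers mark the cell lines, as in MeRIP-seq, each line and treatment has 1 library.

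**Figure D2:**
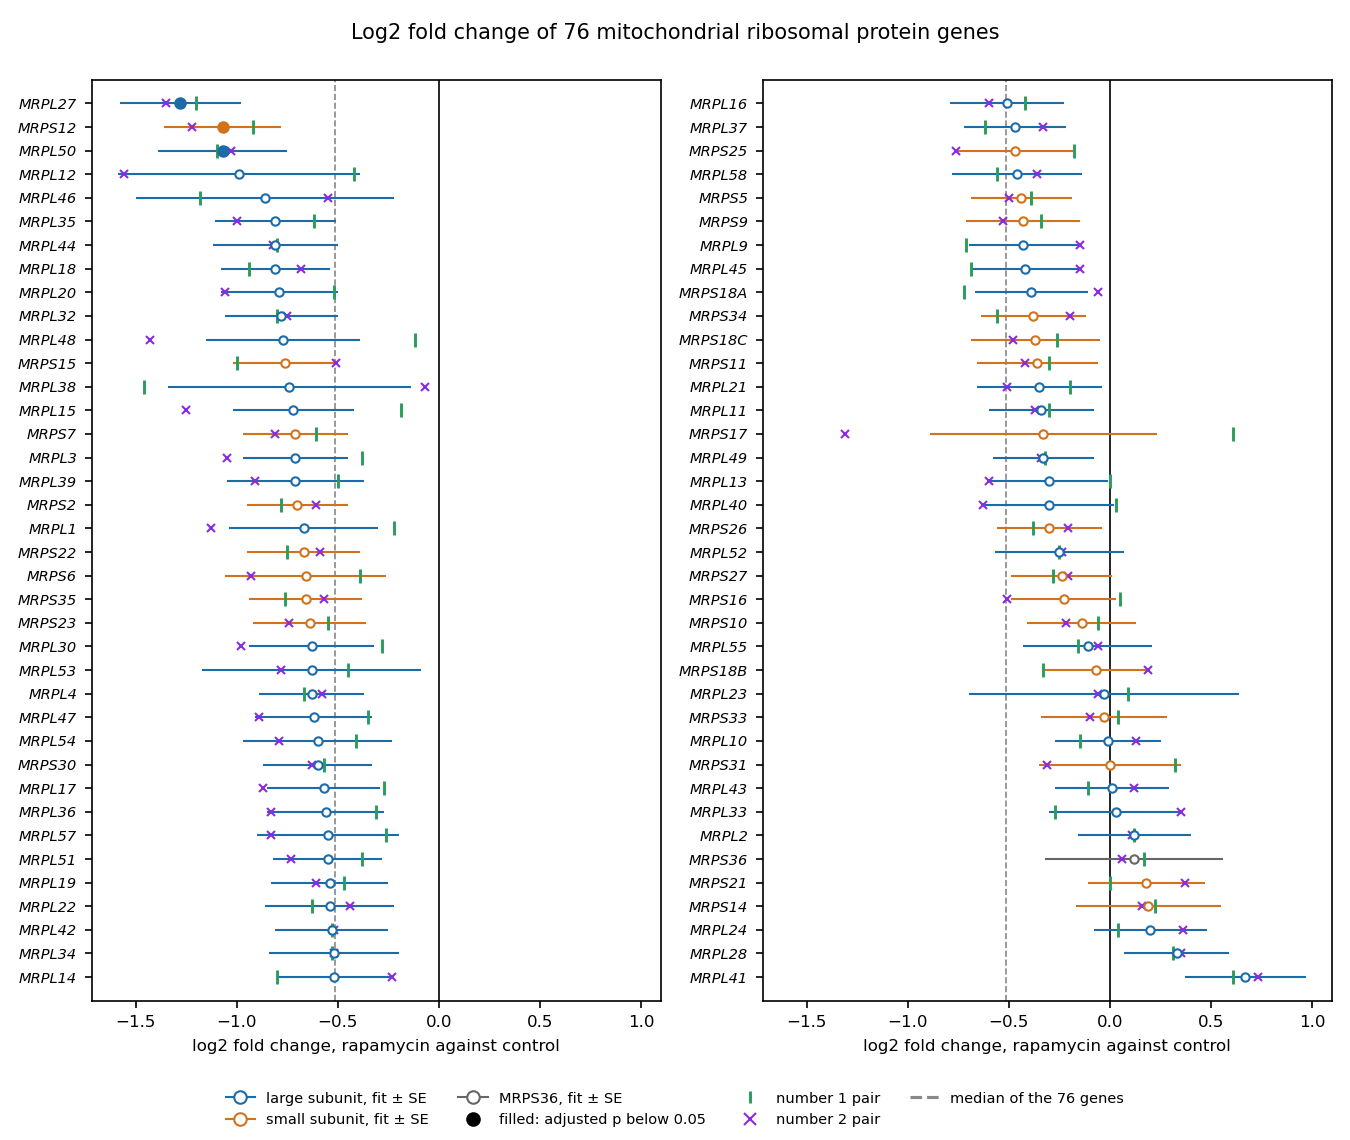
Log2 fold change (horizontal axis) of each of the 76 genes (rows, lowest first), with the fitted value and its SE as circle and bar, filled where the adjusted p was below 0.05, and the difference within each numbered pair as a tick and a cross. The fitted values run from -1.28 (*MRPL27*) to 0.67 (*MRPL41*), around a median of -0.51.

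The 3 genes that fell were *MRPL27* (ENSG00000108826, chr17:50367867-50373184 in RefSeq's GRCh38.p14), *MRPS12* (ENSG00000128626, chr19:38930944-38933168) and *MRPL50* (ENSG00000136897, chr9:101387633-101398618). None of these spans overlaps another RefSeq gene. *MRPL27* encodes bL27m, a protein of the large subunit close to the peptidyl transferase centre. It stood at 26.1 and 12.9 CPM with rapamycin and at 60.3 and 33 CPM in the controls, and each rapamycin library was below both controls. Its log2 fold change was -1.28 ± 0.30 (SE; adjusted p = 0.00926, edgeR), which is a fold of 0.412. *MRPS12* encodes uS12m, a protein of the decoding region of the small subunit, and stood at 28 and 20.6 CPM against 53.1 and 48.1 CPM. The groups of *MRPS12* did not overlap, and its log2 fold change was -1.07 ± 0.29 (adjusted p = 0.0239, edgeR). *MRPL50*, a large-subunit protein specific to mitochondria, stood at 16.1 and 11.5 CPM against 34.6 and 23.6 CPM, again with no overlap (log2 fold change -1.07 ± 0.32, adjusted p = 0.04, edgeR). The adjusted p of *MRPL50* was 0.0751 with DESeq2 and 0.0615 with upper-quartile scaling, so its call depends on these choices. Without the block, the adjusted p was 1 for each of the 3 genes, and the log2 fold change of *MRPL27* was -0.82 without control library 1 and -0.86 without rapamycin library 2.

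The promoters of these genes were read from RefSeq (GRCh38.p14, from 250 bases before to 50 bases after each annotated start), where 69 of the 76 members had an entry. They are shown because 66 of the 76 members had a negative fold change and because genes of the mitoribosome are known to carry sites for the ETS factor GABP, for NRF1 and for YY1. The letters searched on both strands were CCGGAAGT for ETS factors, GCGCATGC for NRF1 and AAGATGGC for YY1. The lines below give the gene strand 5′ to 3′, with the match in capitals, for a choice of 5 members and not for each match. They are *MRPL27* and *MRPL50* and, as further examples, *MRPL20* with 2 kinds of match, *MRPL17* with the NRF1 letters and *MRPL3*, the member with the highest mean CPM. A gene that these lines do not show is not thereby without a match. The 5 members shown had log2 fold changes of -0.57 or lower, and members nearer to 0 held the same letters. *MRPL52* (-0.25) had all 3 kinds, *MRPS18B* (-0.07) those of NRF1 and YY1, and *MRPS10* (-0.14) those of YY1.

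*MRPL27*, ETS, chr17:50373174-50373203, minus strand: acttttcgagaCCGGAAGTgagtgatcgaa
*MRPL27*, ETS, chr17:50373218-50373247, minus strand: ccacgcagggcCCGGAAGTagatctcctga
*MRPL50*, YY1, chr9:101398577-101398606, minus strand: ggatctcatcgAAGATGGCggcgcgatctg
*MRPL20*, ETS, chr1:1407319-1407348, minus strand: cgaccttcgccCCGGAAGTatcgcaggggc
*MRPL20*, YY1, chr1:1407260-1407289, minus strand: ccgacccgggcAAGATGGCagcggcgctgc
*MRPL17*, NRF1, chr11:6683365-6683394, minus strand: tccgagctaagGCGCATGCgttccctgaaa
*MRPL3*, ETS, chr3:131502985-131503014, minus strand: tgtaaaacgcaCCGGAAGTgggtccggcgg

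The YY1 letters were in 19 of 69 member promoters (27.5%), against 5.21% of the promoters of 10650 protein-coding genes tested and 3.03% of all 27305 promoters. In 14 members (20.3%) they stood on the gene strand within the 50 bases after the start, where 3.04% of the protein-coding genes tested had them. These letters contain ATG, and whether they mark a start codon was not examined. The ETS letters were in 11 member promoters (15.9%, against 8.57% of the protein-coding genes tested), and the NRF1 letters in 6 (8.7%, against 5.31%). Of 67 promoters of cytosolic ribosomal protein genes, 16.4% held the ETS letters, close to the share of the members. The NRF1 letters were in 4.48% of these 67 promoters and the YY1 letters in 10.4%. A start with C and 4 further pyrimidines, a feature of one class of mRNAs whose translation follows mTOR, was annotated for 5 members (7.25%), for 44 of 67 cytosolic ribosomal protein genes (65.7%) and for 5.35% of the protein-coding genes tested. The median log2 fold change was -0.56 for the 19 members with the YY1 letters and -0.47 for the other 50. It was -0.63 for the 11 members with the ETS letters and -0.47 for the other 58, and -0.45 for the 6 members with the NRF1 letters and -0.52 for the other 63. A match is a description of the letters and not a bound site.

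The large-subunit genes had a median log2 fold change of -0.54, with 45 of 51 negative, 2 called lower and 0 called higher. The small-subunit genes had a median of -0.37, with 21 of 24 negative, 1 called lower and 0 called higher. Of all genes tested, 47% were negative, 3.5% were called lower and 4.65% higher. The share called lower in each subunit was thus near that of all genes. The 45 members with a bacterial homologue (median -0.52) and the 30 specific to mitochondria (median -0.50) lay side by side, and the difference between such groups was not tested. *MRPL18*, *MRPL27*, *MRPL38*, *MRPL40*, *MRPL46* and *MRPL48* form the central protuberance, which faces the small subunit. They had a median of -0.79, with *MRPL27* called. Without *MRPL46*, whose sign is tied to its choice through the controls, the median of the other 5 was -0.77, and the 5 were negative. Of these, *MRPL18* stood at 43.9 and 40.2 CPM with rapamycin against 84 and 64.3 CPM, with an adjusted p of 0.0633 (edgeR). Without a filter on low counts, edgeR called *MRPL18* lower. *MRPL38* and *MRPL46* rested on few reads, from 8 to 64 counts a library. The 5 genes of the stalk, which recruits translation factors, had a median of -0.60 with 0 called by edgeR or DESeq2 and 0 at an unadjusted p below 0.05, and *MRPL12*, its best known member, stood at 1.79 and 0.987 CPM against 2.4 and 3 CPM. DESeq2 gave no adjusted p for 2 of the stalk genes, *MRPL12* among them, and so could not call these. The 5 genes around the polypeptide exit had a median of -0.42 with 0 called by edgeR or DESeq2 and 1 at an unadjusted p below 0.05. Their median was -0.35 in the number 1 pair and -0.15 in the number 2 pair, and DESeq2 gave no adjusted p for 1 of them.

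The genes with the highest CPM, a level not corrected for length, were *MRPL3*, *MRPL37*, *MRPL49*, *MRPS2* and *MRPS18B*. *MRPL3*, which encodes uL3m of the large subunit, stood at 107 and 138 CPM with rapamycin and at 139 and 286 CPM in the controls (log2 fold change -0.71 ± 0.26, adjusted p = 0.0927, edgeR). *MRPS2*, which encodes uS2m of the small subunit, stood at 87.3 and 73.3 CPM against 150 and 112 CPM (-0.70 ± 0.25, adjusted p = 0.0857, edgeR). For both genes the rapamycin libraries were below the controls, by a narrow margin for *MRPL3*. In the fit without the block, *MRPL3* was at -0.19 without control library 2 and at -1.29 without control library 1. *MRPL37* stood at 94.8 and 142 CPM against 146 and 179 CPM. *MRPL49* stood at 104 and 103 CPM against 130 and 130 CPM. *MRPS18B* was the exception, at 99.7 and 93.3 CPM against 125 and 81.8 CPM, and was lower in the number 1 pair alone.

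In both pairs 7 members (9.21%) were higher, against 34.6% of all genes tested, and none of these 7 members passed the test. *MRPL41*, a large-subunit protein specific to mitochondria that is also known to promote apoptosis, stood at 19.5 and 56.9 CPM with rapamycin and at 12.7 and 34.2 CPM in the controls. The groups overlapped because number 2 was higher than number 1, and the log2 differences within the pairs were 0.61 and 0.73 (fit 0.67 ± 0.30, adjusted p = 0.169, edgeR). *MRPL28*, which encodes bL28m, stood at 91.2 and 99.2 CPM against 73.7 and 77.9 CPM, without overlap (0.33 ± 0.26, adjusted p = 0.46, edgeR). *MRPL24*, which encodes uL24m, stood at 37.2 and 66.3 CPM against 36.2 and 51.5 CPM (0.20 ± 0.28, adjusted p = 0.705, edgeR). *MRPS36*, which is not a mitoribosomal protein by current knowledge, was also above 0, at 0.12.

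The same test was read for the rest of the mitochondrial translation system. Over all genes tested it called 3.5% lower and 4.65% higher, and 10.5% were lower at an unadjusted p below 0.05. Of the 5 mitoribosomal proteins with other symbols, edgeR and DESeq2 called 0, with 3 lower at an unadjusted p below 0.05 (edgeR), and the median log2 fold change was -0.62. *AURKAIP1*, of the small subunit, stood at 45 and 33.2 CPM with rapamycin against 77.2 and 60.8 CPM (adjusted p = 0.0607, and 0.0422 without a filter on low counts, edgeR), and *GADD45GIP1*, of the large subunit, at 26.7 and 37 CPM against 51.5 and 49.6 CPM (adjusted p = 0.144, edgeR). *DAP3*, a GTP-binding protein of the small subunit, stood apart, at 88.6 and 120 CPM against 71.5 and 122 CPM. Of 22 assembly factors, 2 fell and 0 rose (median -0.41). These were *DHX30*, an RNA helicase, at 78.1 and 90.7 CPM against 140 and 167 CPM (-0.86 ± 0.25, adjusted p = 0.0338, edgeR), and *MRM1*, which methylates the large ribosomal RNA, at 4.89 and 5.98 CPM against 14.4 and 13.6 CPM (-1.37 ± 0.41, adjusted p = 0.0374, edgeR).

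Of 15 translation factors, 1 fell and 0 rose with edgeR (median -0.43, with -0.27 in the number 1 pair and -0.67 in the number 2 pair). It was *GFM1*, the elongation factor that moves the ribosome along the mRNA, at 63.2 and 77 CPM against 111 and 158 CPM (-0.93 ± 0.26, adjusted p = 0.0249, edgeR). DESeq2 also called *LRPPRC*, which stabilizes mitochondrial mRNAs, lower, at 280 and 222 CPM against 430 and 391 CPM (-0.70, adjusted p = 0.0455, and 0.0794 with edgeR). Of 17 mitochondrial aminoacyl-tRNA synthetases, *LARS2*, which charges the leucine tRNA, fell and 0 rose (median -0.26). The median of these 17 genes was -0.15 in the number 1 pair and -0.68 in the number 2 pair. *LARS2* stood at 28.8 and 39 CPM against 48.6 and 80.1 CPM (-0.90 ± 0.28, adjusted p = 0.0454, edgeR). Of 9 genes of mitochondrial DNA expression, *TFAM*, which packages and transcribes mitochondrial DNA, fell and 0 rose (median -0.57). The median of these 9 genes was -0.23 in the number 1 pair and -0.89 in the number 2 pair. *TFAM* stood at 54 and 32.7 CPM against 86.3 and 70.9 CPM (-0.89 ± 0.27, adjusted p = 0.0417, edgeR). None of the falls called by edgeR passed without the block, where 0% of all genes were called. The falls of *MRM1*, *LARS2* and *TFAM* did not pass with DESeq2, with adjusted p of 0.102, 0.0617 and 0.0632. With upper-quartile scaling in edgeR the fall of *GFM1* passed, and those of *DHX30*, *MRM1*, *LARS2* and *TFAM* did not, with adjusted p of 0.0559, 0.0548, 0.0724 and 0.0664. *LARS2* did not pass with DESeq2's size factors in edgeR either (0.0515). In the fit without the block, the log2 fold change was -0.53 for *LARS2* without control library 2 and -0.56 for *TFAM* without rapamycin library 2.

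Of the 13 mitochondrially encoded mRNAs, the templates of the mitoribosome, edgeR called 0, with 3 lower at an unadjusted p below 0.05, and DESeq2 called *MT-ND1* lower. Of all genes tested, edgeR called 3.5% lower, and 10.5% were lower at an unadjusted p below 0.05. Without a filter on low counts, edgeR called *MT-ND1* and *MT-ND2* lower (adjusted p = 0.0335 and 0.0222). The median log2 fold change of the 13 mRNAs was -0.14, with 9 of 13 negative, nearer to 0 than that of the members. It was -0.04 in the number 1 pair and -0.30 in the number 2 pair. *MT-ND1*, a subunit of complex I, stood at 2953 and 1556 CPM with rapamycin and at 4530 and 3124 CPM in the controls (adjusted p = 0.0596 with edgeR and 0.0243 with DESeq2). *MT-ND2*, of the same complex, stood at 2366 and 1348 CPM against 2979 and 3584 CPM (adjusted p = 0.0654, edgeR). The RNA of the large mitoribosomal subunit, *MT-RNR2*, rose from 7131 and 4067 CPM in the controls to 9865 and 16277 CPM (1.23 ± 0.34, adjusted p = 0.0377, edgeR), by 0.47 in the number 1 pair and 2.00 in the number 2 pair. *MT-RNR1*, that of the small subunit, stood at 855 and 2114 CPM against 901 and 1145 CPM and was not called (adjusted p = 0.404, edgeR). The label of the library kit names mRNA, and how far the levels of these 2 RNAs follow from mRNA selection was not tested.

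Among the 8 measured regulators of mitochondrial genes, 1 rose and 1 fell, where edgeR called 4.65% of all genes higher and 3.5% lower. *MYC* rose from 188 and 158 CPM in the controls to 608 and 250 CPM (1.18 ± 0.28, adjusted p = 0.0119, edgeR), by 1.69 in the number 1 pair and by 0.66 in the number 2 pair. *PPRC1*, a coactivator of the PGC-1 family, fell from 164 and 170 CPM to 120 and 47.4 CPM (-1.15 ± 0.31, adjusted p = 0.0325, edgeR). Its log2 difference was -0.46 in the number 1 pair and -1.84 in the number 2 pair, and the adjusted p was 0.0591 with DESeq2 and 0.0538 with upper-quartile scaling. The factors whose letters were searched were not called. *YY1* stood at 147 and 178 CPM with rapamycin against 215 and 173 CPM, *NRF1* at 21.7 and 17.9 CPM against 19.4 and 22.6 CPM, and *GABPA*, the DNA-binding subunit of GABP, at 18 and 15 CPM against 24.4 and 21.8 CPM.

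The 83 genes of the cytosolic ribosome had a median log2 fold change of 0.21, and 16 of 83 were negative. Of these, edgeR called 0, with 4 higher and 0 lower at an unadjusted p below 0.05. Over the 15826 genes tested, 2077 were higher and 1659 lower at that p. DESeq2 called *RPL3* higher, at 1601 and 2333 CPM with rapamycin against 1052 and 1436 CPM (adjusted p = 0.0382, and 0.123 with edgeR). In the number 1 pair the median of the 83 genes was 0.03 and in the number 2 pair 0.40. The 73 nuclear-encoded subunits of the respiratory chain and ATP synthase had a median of -0.19, with 56 negative and 1 called lower. Their median was -0.29 in the number 1 pair and -0.13 in the number 2 pair. Of all genes tested, 47% were negative and 3.5% were called lower. The medians of the members and of the lists are set out in the plot of list medians, and the difference between lists was not tested.

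**Figure D3:**
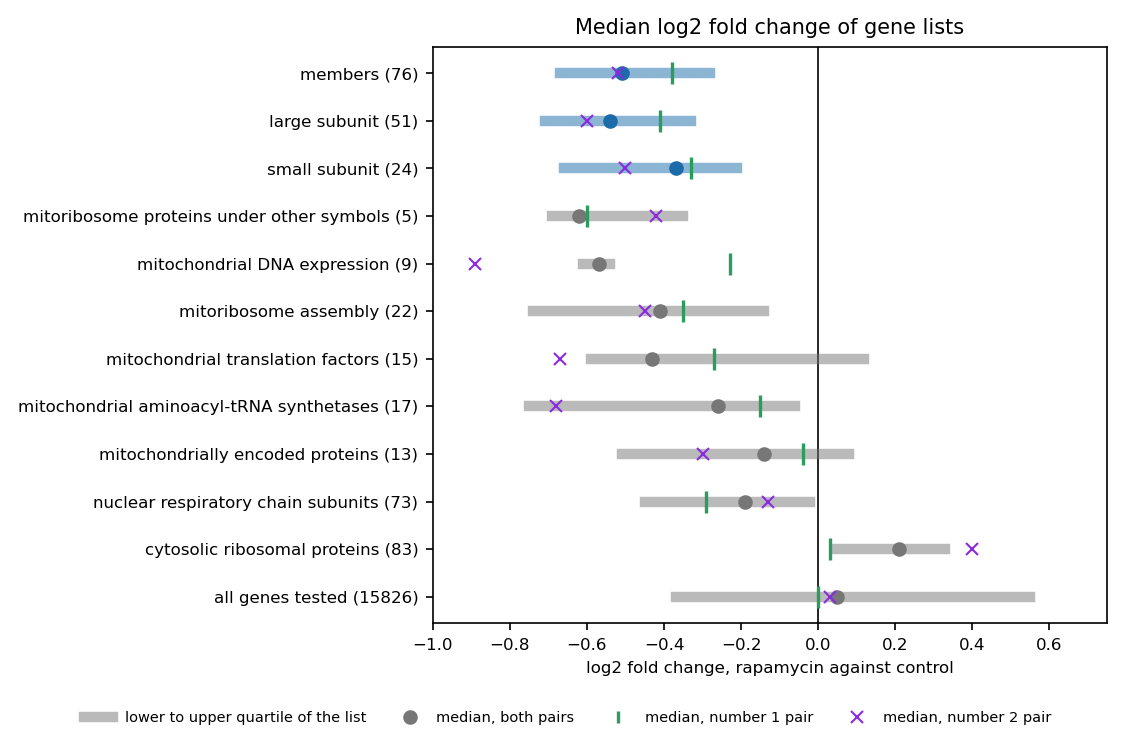
Median log2 fold change (circle) and quartiles (bar) of each gene list (rows, with the number of genes tested), with the medians within the number 1 pair (tick) and the number 2 pair (cross). The members (median -0.51) and both subunits lie below 0 in both pairs, as do the other mitochondrial lists shown. The cytosolic ribosomal proteins (0.21) do not.

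The members were also compared between the numbers. *MRPL23* and *MRPL46* reached the limit on mean CPM through number 2 alone, so for them a difference between the numbers is tied to the choice of members. Of all genes tested, 37.3% differed between number 1 and number 2 (edgeR), and of the members 11 of 76 (14.5%), with 5 higher in number 1 and 6 higher in number 2. *MRPL23* is 1 of these 6. *MRPL23*, which encodes uL23m at the polypeptide exit, had 1 count in each number 1 library, and 125 and 169 counts in the number 2 libraries with rapamycin and in the control. Per library total, without TMM scaling, the number 2 level was thus 123 times the number 1 level with rapamycin and 154 times in the controls. Each of these ratios rests on 1 count in the number 1 library. These values are a description, since *MRPL23* entered through number 2, where it is high. Within a number its levels with and without rapamycin were close, at 6.86 and 7.14 CPM in number 2. The annotated span of *MRPL23* overlaps *H19* and other RNA genes, and the use of strand in counting is not stated.

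The other differences between the numbers were smaller. *MRPL57*, specific to the mitochondrial large subunit, stood at 8.15 CPM in number 1 and 19.4 CPM in number 2 with rapamycin, and at 9.79 and 34.4 CPM in the controls (log2 difference -1.53, adjusted p = 9.33e-04, edgeR). *MRPL41* was also lower in number 1 (-1.49, adjusted p = 2.95e-04, edgeR), as were *MRPL47*, *MRPS22* and *MRPL3*. *MRPL36*, a small protein of the large subunit, stood at 49.5 CPM in number 1 and 15 CPM in number 2 with rapamycin, and at 61.4 and 26.7 CPM in the controls (1.46, adjusted p = 2.81e-04, edgeR). *MRPL33*, *MRPS30*, *MRPL27* and *MRPS18C* were higher in number 1 as well. *MRPL27* thus differed both between the numbers and with rapamycin.

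**Figure D4:**
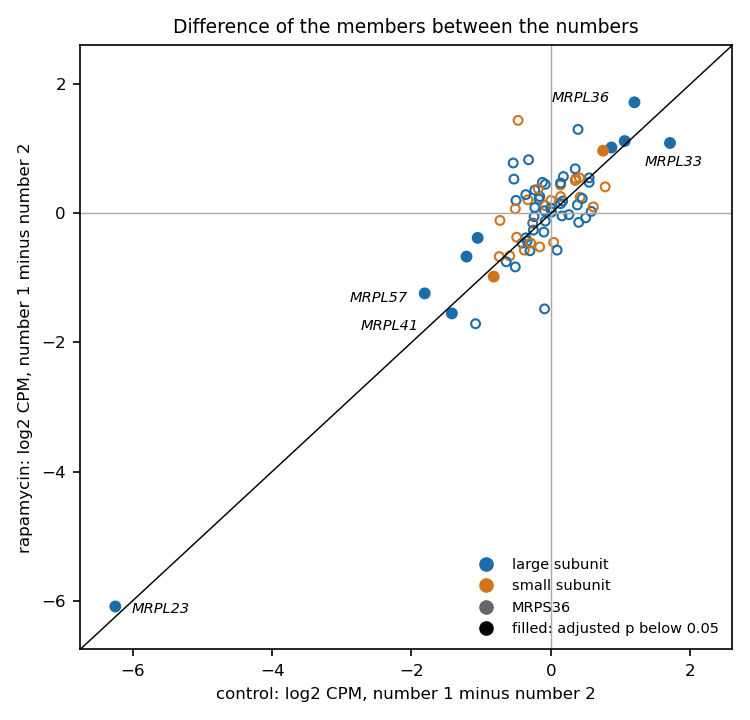
Log2 CPM in number 1 minus number 2 for each member, in the controls (horizontal axis) and with rapamycin (vertical axis); the diagonal marks equal differences and filled points have an adjusted p below 0.05. *MRPL23* lies at -6.25 and -6.09, and the points correlate at r = 0.86 over 76 members and at r = 0.67 over 75 without it.

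m6A peaks were read from the 4 lists that the authors deposited, 1 for each line and treatment, with no replicate and therefore no test. In HSC3, 10 members (13.2%) had a peak in the control and 12 (15.8%) with rapamycin, where 20% and 19.9% of the 12987 protein-coding genes tested had one. In CAL33, 9 members (11.8%) had a peak in the control and 6 (7.89%) with rapamycin, against 18.6% and 16.3%. The share of members was thus below that of protein-coding genes in each list. Taken over the lists, 24 members had 39 peaks and 52 had none, against 39.8% of protein-coding genes with at least 1 peak. The authors placed 23 of the 39 peaks in a 3′ UTR (59%, against 36.3% of all listed peaks), 11 in coding sequence, 5 in another exon class and 0 in a 5′ UTR. Members with a peak had a median log2 fold change of -0.52 and those without of -0.47.

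A peak was listed for 15 members in 1 list, for 6 in 2 lists, for 2 in 3 lists and for 1 in all 4. The member in all 4 was *MRPL27*, which also fell most. Its peaks lay in the 3′ UTR (hg38), at chr17:50368007-50368246 in both HSC3 lists, with a fold enrichment over input of 9.49 in the control and 10.4 with rapamycin. In CAL33 the peak was at chr17:50367857-50368246 with 426 in the control and at chr17:50367857-50368007 with 21.4 with rapamycin. The CAL33 rapamycin peak shared 1 base with those of HSC3 and lay within that of the CAL33 control. Enrichment was thus close with and without rapamycin in HSC3 and lower with rapamycin in CAL33. *MRPL50*, which also fell, had a peak at chr9:101390429-101390726 in the HSC3 control (9.02) and at chr9:101390339-101390548 with rapamycin (12), and none was listed in CAL33. *MRPS12* had 1 peak, in the coding sequence at chr19:38932596-38932775 in the CAL33 control (89.4).

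*MRPL14*, which encodes uL14m, had a peak in the coding sequence in 3 lists, with enrichments of 8.22 in the HSC3 control, 29.8 in the CAL33 control and 13.8 in CAL33 with rapamycin. *MRPL12* had a 3′ UTR peak in 3 lists, with 129 in HSC3 with rapamycin, 99.6 in the CAL33 control and 13.4 in CAL33 with rapamycin, the last at a false discovery rate of 0.5 in the deposited list. It is also a gene of few reads. Of the genes listed in both treatments of a line, those in CAL33 (*MRPL12*, *MRPL14* and *MRPL27*) were lower with rapamycin. The median over all peaks of the CAL33 lists was also lower, at 35.9 with rapamycin against 42.6 in the control. In HSC3 enrichment was higher or close for *MRPL27*, *MRPL35*, *MRPL45* and *MRPL50* and lower for *MRPS27*. *MRPL35* was close in HSC3 with and without rapamycin (79.3 and 64.5), *MRPL45* was higher with rapamycin (76.6 against 4.31), and *MRPS27* was lower (3.08 against 185, the first at a false discovery rate of 0.0501). *MRPL17* was listed in the HSC3 control (18.4) and in CAL33 with rapamycin (13.4). *MRPL57* was listed with rapamycin alone, in HSC3 at 13.7 and 104 and in CAL33 at 16.1, where the peaks at 13.7 and 16.1 had false discovery rates of 0.286 and 0.142. Peaks of the same gene in different lists overlapped by at least 1 base in 18 cases on 9 genes, 8 of them within a cell line. The read depth behind the peaks is unknown, and the absence of a peak from a list does not show the absence of m6A.

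**Figure D5:**
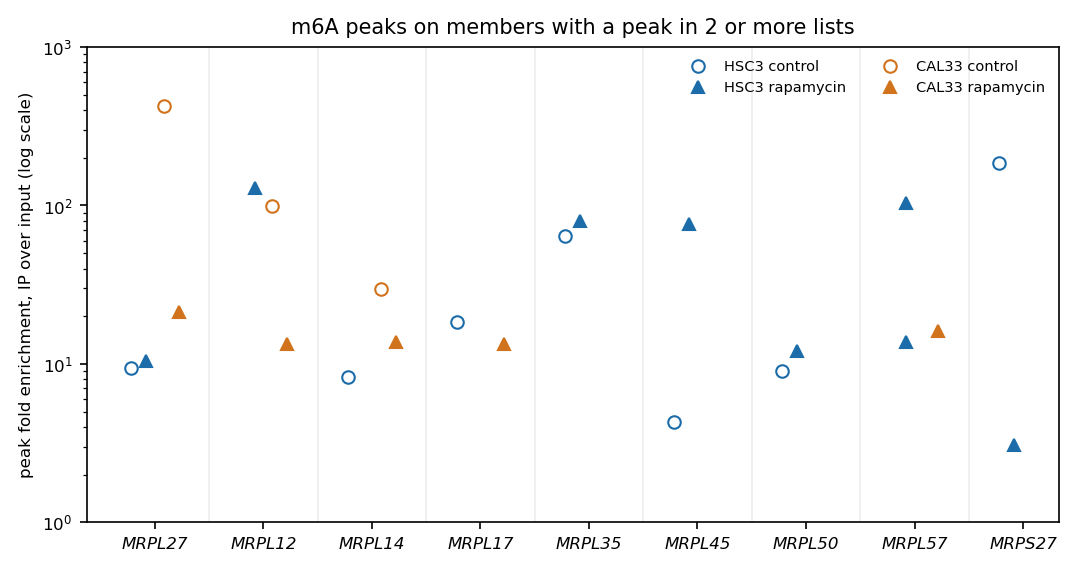
Fold enrichment of immunoprecipitated RNA over input (vertical axis, log scale) for each peak on the 9 members with a peak in 2 or more lists, with circles for control and triangles for rapamycin, HSC3 in blue and CAL33 in orange. Each point is 1 listed peak without a replicate, and *MRPL27* runs from 9.49 to 426.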

How the data were processed

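For the 4 RNA-seq libraries the authors deposited read counts, not normalized, and for each pair of MeRIP-seq libraries, a peak list with a fold enrichment (ratio over input) and p-values. The submitters' processing notes name cutadapt 2.5, HISAT2 2.1.0, featureCounts 1.6.3, HOMER 4.10.4 and hg38, whereas the count table is titled as HTSeq output, so the counter is uncertain. The lists' log10 false discovery rates, deposited in a column of other values, were read as powers of 10.

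Symbols were matched for 57532 of 58302 identifiers. Counts were analysed in R with edgeR 4.0.16 (filterByExpr, TMM, robust quasi-likelihood test) with the library number as a block, chosen because same-numbered libraries correlated best (r = 0.91 between the number differences of the 2 treatments; common dispersion 0.061 with the block and 0.64 without). DESeq2 1.42.0 was an alternative. Scripts were tested on simulated data. Pair differences are of log2 CPM with a prior count of 1, and overlaps needed 1 bp. The 79 pseudogenes of the family, with 122 counts in all against 290580 for the members, were left out. Of the members, 30 overlap another RefSeq gene, so their counts are less certain. Named genes were those called, the 3 largest rises and falls with the same direction in both pairs, the 5 with most CPM, those with a peak in 2 or more lists and, per list, those called or the 2 largest changes; *MRPL23*, the factors behind the motifs and other single genes were added after their values were seen. The sequences of matches other than those printed are not reported here. The members and lists were chosen with earlier results of these data known.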

Additional observations from a re-analysis of the deposited data

Results flagged for a closer look

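*MRPS18B* was singled out because its difference between rapamycin and control ran in opposite directions in the numbered pairs, at -0.33 in the number 1 pair and 0.19 in the number 2 pair on the log2 scale. Opposite signs in the pairs were not particular to *MRPS18B*: 10 of the 76 members had them, as had 5169 of the 15826 genes tested. *MRPS17*, for example, ran further apart, at 0.61 and -1.31. Each pair has 1 library a treatment, and the difference between the pairs was not tested.

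The peak of *MRPL27* was singled out because its enrichment with rapamycin was not lower in HSC3, where the values were close (10.4 against 9.49), and was lower in CAL33 (21.4 against 426). Lower values with rapamycin in CAL33 were not particular to *MRPL27*, since *MRPL12* and *MRPL14* had them too. There is 1 list for each line and treatment, so neither a change in HSC3 nor a difference between the lines was tested.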

How the results depend on the processing

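The member count of 3 called genes depended on the replicate block: without the block it was 0 with edgeR and 0 with DESeq2 (the latter chosen after seeing the data). The edgeR fit without the block also called 0 of the changed genes in simulated counts, so it cannot decide whether the calls hold. With the block the member count was 2 with DESeq2, which gave no adjusted p for 6 members, and 2 with upper-quartile scaling. Without a filter on low counts it was 4, with *MRPL18* added. The count over all genes, 1290 with the block, was 0 without it, 36 with DESeq2 without it and 830 with DESeq2 with it. With the block, leaving out a library leaves 1 pair and no test. The median of the members stayed negative, between -0.55 and -0.44 over the other settings and between -0.54 and -0.38 with a library left out. Upper-quartile scaling moved the median of all genes to 0.13 and that of the members to -0.44, a distance close to that under TMM, and split the calls over all genes into 805 higher and 360 lower, against 736 and 554. Of the genes named singly, *MRPS18B* turned to 0.00 under upper-quartile scaling. With a library left out, with or without the block, the values ran from -0.38 to 0.19 for *MRPS18B*, from -0.62 to 0.08 for *MRPS27*, from -1.46 to 0.48 for *MRPL57*, from -0.26 to 0.57 for *MRPL24* and from -0.29 to 1.57 for *MRPL41*. The 11 members called between the numbers, the peak counts and the 18 peak overlaps kept within 1.5 times under their alternatives. The cause of these changes was not tested. The 4 libraries limit what single genes can show, and the depth behind the peaks is unknown.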
